A study of Homo sapiens with 6 samples.

Results

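This report describes 36 genes of the human nuclear receptor superfamily in NCI-H1299 lung cancer cells treated with norepinephrine (NE). The genes were chosen by name: steroid hormone receptors, the retinoid X receptors (RXR) and the ligand-regulated receptors that pair with them, the COUP-TF and testicular receptors, and orphan or tissue-restricted receptors. The NR4A, NR1D, ROR and ESRR families were left out by the rule. Of the 36 genes, 32 were listed among the 26025 genes of the deposited table, and 23 were expressed highly enough to be tested, among 15013 genes tested in all. PGR, RXRG, NR0B2 and HNF4A were not analysed here.

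The samples were 6 RNA libraries of NCI-H1299, an established line from a human lung carcinoma, 3 from the Ctrl group and 3 from the NE group. All cells were kept in DMEM for 8 to 12 h and then grown for 48 h in RPMI-1640 with 2% fetal bovine serum. The NE group received NE at 10 µM during the 48 h, and the Ctrl group received vehicle, which the sample titles name as DMSO and the treatment notes as PBS. The comparison asks which transcripts differ between NE-treated and control cells at a single dose and a single time. The labels do not say whether the 3 libraries of a group came from separate cultures, so p-values measure the spread between these libraries, which may be technical.

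Nuclear receptors are transcription factors that share a zinc-finger DNA-binding domain and a ligand-binding domain. Steroid receptors such as the glucocorticoid receptor wait in the cytoplasm with heat shock protein chaperones until hormone releases them, and then bind DNA as homodimers. Receptors for retinoic acid, vitamin D, thyroid hormone, fatty acids and oxysterols mostly sit on DNA as heterodimers with an RXR, and exchange corepressors for coactivators when ligand binds. NE acts on adrenergic receptors at the cell surface, and the beta class raises cyclic AMP and activates protein kinase A and the factor CREB, which binds the cyclic AMP response element (CRE) in promoters. RNA-seq measures the receptors' transcripts and says nothing of their ligands, their location or their activity.

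Because CREB is the classical nuclear end of that pathway, promoters of the receptors were searched on both strands for the full CRE, TGACGTCA, and for its shorter form, TGACG or CGTCA, which also lies inside the full element. RefSeq promoter sequences (GRCh38.p14, 250 bases before to 50 after a transcription start) matched 32 of the 36 genes with 75 windows. VDR, NR2F6, NR0B2 and HNF4G had no entry. A full element was found in 2 of the 75 windows (2.67%), against 1.85% of all 35116 windows in the set. The shorter form was found in 17 of the 75 (22.7%), against 24.6% of all windows. The upstream stretches below are those of tested receptors in which the element began within 50 bases of the start and lay outside annotated exons. Capitals mark the element, and each sequence runs 5′ to 3′ on the strand of the gene.
NR6A1, chr9:124771312-124771365, minus strand: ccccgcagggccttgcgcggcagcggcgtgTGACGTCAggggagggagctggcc
NR2C1, chr12:95073629-95073678, minus strand: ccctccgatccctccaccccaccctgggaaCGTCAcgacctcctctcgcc
PPARD, chr6:35342496-35342557, plus strand: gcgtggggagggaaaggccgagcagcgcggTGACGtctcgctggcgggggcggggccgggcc
The element began 24 bases upstream of the annotated start in NR6A1, 30 bases in NR2C1 and 32 bases in PPARD. Shorter elements were also found 1, 15 and 110 bases upstream of starts of NR3C1, 33 bases upstream of a start of NR1H2, which fell with NE, 150 bases upstream in NR3C2 and 247 in NR5A2. The other full element lay 56 bases upstream of a start of NR2E1, a receptor of neural progenitors with fewer reads than the minimum for testing. A match of letters is not evidence of binding, and no binding was measured here.

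Each library held between 16852751 and 17979206 reads assigned to genes. Values are normalized counts, that is, reads of a gene divided by the size factor of its library, while levels compared between genes are given as FPKM, which divides by exon length and library total. Ctrl replicate 3 stood apart from the other control libraries over genes as a whole. Its counts differed from theirs by a chi-square per degree of freedom of 45.4 and 49.5, against 2.86 between Ctrl replicates 1 and 2 and 5.37 to 24.3 among NE libraries, and 7305 genes were at 0 in it, against 3954 to 4833 in the other libraries. For this reason values without Ctrl replicate 3 are given beside the results that they change. The controls left are then the closest pair of libraries, and 4802 of 15061 genes tested were called higher and 4890 lower. Smaller adjusted p-values in that setting are therefore not read as firmer results. The line's label was checked by markers: KRT8 and KRT18 were abundant together with the mesenchymal filament gene VIM, and the epithelial junction genes CDH1 and EPCAM had at most 8 summed reads per group. KRT19, also an epithelial keratin, had 21 summed reads in Ctrl and 8 in NE. The mesenchymal genes CDH2 and FN1 averaged 1061 and 1462 normalized counts in Ctrl. Markers of leukocytes, endothelium, fibroblasts and mature lung epithelium averaged at most 26.7 in a group, the highest being PECAM1.

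With NE, 6 of the 23 tested receptors rose and 9 fell, with a Benjamini-Hochberg adjusted p under 0.05 in limma. This was 26.1% and 39.1% of the receptors tested, and over all 15013 genes tested 24.6% rose and 25.5% fell. The 6 that rose were NR3C1, PPARA, PPARG, NR2C1, NR2C2 and NR6A1. The 9 that fell were VDR, NR2F6, NR2F2, RXRA, RXRB, RARA, RARG, NR1H2 and NR1H3. NR3C1 alone rose and VDR alone fell by at least 2-fold, where 7.47% and 6.55% of all genes did so. The median log2 fold change of the tested receptors was -0.004, and that of all genes tested was 0.010. In all 15 receptors that passed the test, and in 3 of the 8 that did not, the 3 NE libraries lay entirely above or entirely below the 3 Ctrl libraries. Passing the test favours such a separation, so it is a description and adds no support. The share of all genes tested with such a separation was not computed, so whether the receptors differ from it is not known. In bulk RNA, fewer cells with a transcript and less of it per cell cannot be told apart.

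**Figure D1:**
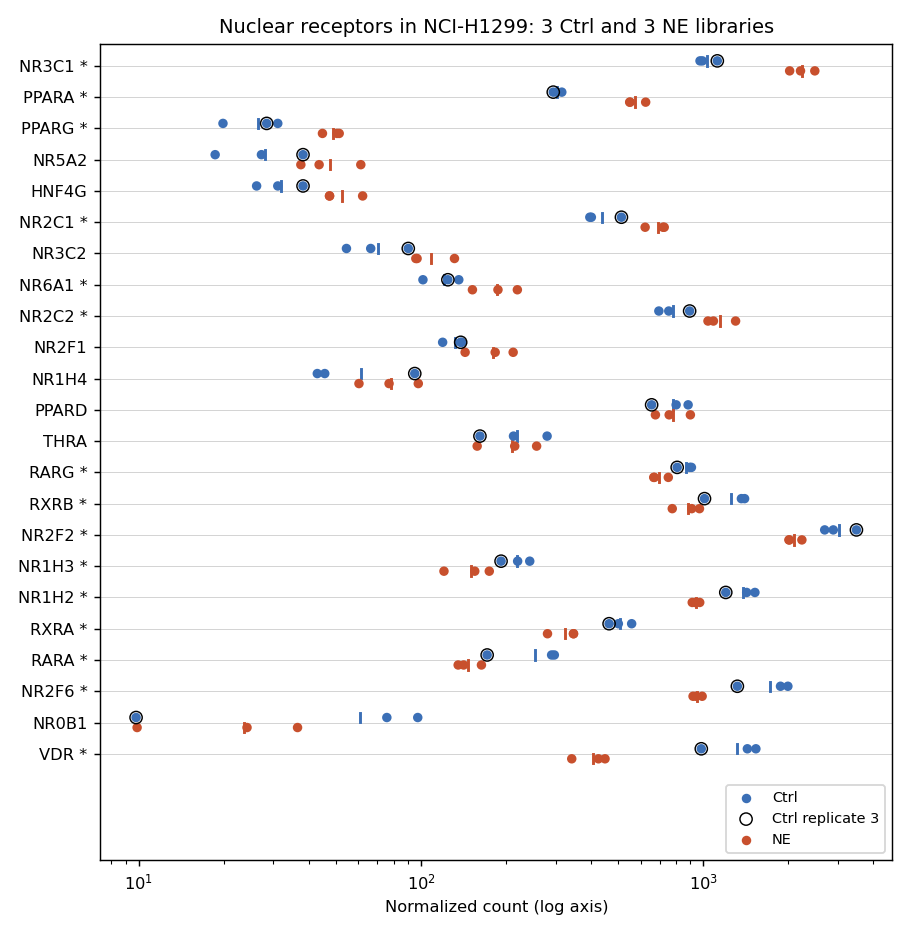
Normalized counts of the 23 tested receptors (log axis) in each of the 3 Ctrl (blue) and 3 NE (orange) libraries, with short vertical lines at group means, rings around Ctrl replicate 3 and stars at genes with an adjusted p under 0.05. NR3C1 at the top has the largest rise and VDR at the bottom the largest fall, and the ring lies on the NE side of the other Ctrl points for most genes.

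Among steroid receptors, NR3C1, which encodes the glucocorticoid receptor, was the receptor with the largest rise before correction for GC content. NR3C1 (ENSG00000113580, chr5:143277931-143435512, minus strand) was at 992, 973 and 1120 normalized counts without NE (Ctrl replicates 1 to 3) and at 2480, 2207 and 2020 with NE. The lowest NE library was thus well above the highest Ctrl library. The log2 fold change was 1.12 ± 0.117 (SE, n = 3 per group), a 2.17-fold rise with a limma adjusted p of 0.000173. After correction for exon GC content, described below, it was 0.73 with an adjusted p of 0.000405, which is past the test but under 2-fold. NR3C2, the mineralocorticoid receptor, which binds cortisol as well as aldosterone, had 54.5, 66.4 and 90.2 counts in Ctrl and 131.4, 95.9 and 96.9 in NE. These groups did not overlap, yet the log2 fold change of 0.63 missed the threshold with a limma adjusted p of 0.0566. Without Ctrl replicate 3, whose value was close to the lower NE values, it was 0.82 with an adjusted p of 0.0056.

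Both estrogen receptors were near the limit of detection. ESR1 had 7 reads summed over the Ctrl libraries and 28 over the NE libraries, and ESR2 had 14 and 37. Both had 0 reads in Ctrl replicate 3. Neither reached the minimum mean of 10 normalized counts, so neither was tested.

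The tested RXR genes, which encode the shared partner of the receptors that follow, both fell. RXRA had 557, 499.8 and 464 counts in Ctrl and 347, 347 and 281 in NE, a log2 fold change of -0.64 ± 0.141 (SE) with a limma adjusted p of 0.00483. RXRB had 1363, 1399 and 1009 in Ctrl and 776, 969 and 909 in NE, a log2 fold change of -0.50 with an adjusted p of 0.0226, a call kept in 2 of the 6 analyses that left out 1 library. Ctrl replicate 3 was the lowest control library for both genes. After GC correction neither gene passed the test, with log2 fold changes of -0.04 for RXRA and -0.02 for RXRB. Part of RXRB (9.26% of its exon bases) overlaps SLC39A7 on the other strand, and reads there cannot be assigned to 1 gene unless the counting used strand, which is not given in the sources used here.

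Of the retinoic acid receptors, RARA and RARG fell and RARB was hardly detected. RARA had 290.1, 297 and 172 counts in Ctrl and 135, 164 and 142 in NE, with a log2 fold change of -0.74 ± 0.224 (SE) and a limma adjusted p of 0.0213. Ctrl replicate 3 was again the control closest to the NE libraries, and without it the log2 fold change was -0.997 with an adjusted p of 6.06e-05. The call was lost when Ctrl replicate 1, Ctrl replicate 2, NE replicate 1 or NE replicate 3 was left out. RARG had 907, 895 and 808 in Ctrl and 667, 670.2 and 751 in NE, a smaller log2 fold change of -0.32 with an adjusted p of 0.0403. This call was kept in 1 of the 6 analyses that left out 1 library, the one without Ctrl replicate 3, and was lost with TMM scaling and without the filter on low values. The direction for RARG depended on GC correction, after which it was 0.24 with an adjusted p of 0.12, and that of RARA then was -0.11 with an adjusted p of 0.596. RARB, whose promoter is a textbook target of retinoic acid, had 18 summed reads in Ctrl and 37 in NE and was not tested.

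VDR, the receptor of calcitriol, the active form of vitamin D, showed the largest fall. VDR (ENSG00000111424, chr12:47841537-47943048, minus strand) had 1534, 1431 and 983 counts in Ctrl and 425, 448 and 342 in NE. Even the lowest control library, replicate 3, was above every NE library by more than 2-fold. The log2 fold change was -1.68 ± 0.184 (SE), with a 95% interval from -2.10 to -1.27 and a limma adjusted p of 0.000207. It was -1.88 without Ctrl replicate 3 and -1.28 after GC correction (adjusted p 0.000131). VDR was the only receptor that was called lower by at least 2-fold with and without GC correction in all 6 libraries. The ratio of NR3C1 to VDR reads was 0.646, 0.680 and 1.14 in the Ctrl libraries and 5.84, 4.92 and 5.91 in the NE libraries. These genes had the largest rise and the largest fall before GC correction, so a shift in their ratio follows from that choice. The ratio was not corrected for GC content.

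The peroxisome proliferator-activated receptors sense fatty acids, with PPARA driving fatty acid oxidation, PPARG driving fat storage and PPARD being broadly expressed. PPARA had 315, 303 and 294 counts in Ctrl and 625, 548 and 550.1 in NE. Its Ctrl libraries had an SD of 10.7 counts, and the log2 fold change was 0.91 ± 0.122 (SE) with a limma adjusted p of 0.000458. GC correction left it nearly as large, at 0.89 with an adjusted p of 0.000358. PPARD had 883, 801 and 656 in Ctrl and 899, 756 and 676 in NE, with fully overlapping groups and a log2 fold change of -0.004 (95% interval -0.35 to 0.34). With GC correction the log2 fold change of PPARD became 0.51 and passed the test with an adjusted p of 0.0118. The ratio of PPARA to PPARD reads, 0.357, 0.378 and 0.448 in Ctrl, was 0.695, 0.725 and 0.814 in NE.

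PPARG was a low transcript, with 19.9, 31.1 and 28.4 counts in Ctrl and 50.4, 51.3 and 44.8 in NE. It rose with a log2 fold change of 0.88 ± 0.283 (SE) and a limma adjusted p of 0.0277. That call was less firm than the one for PPARA, since it was kept in only 2 of the 6 analyses that left out 1 library, and the GC-corrected log2 fold change was 0.30 with an adjusted p of 0.447.

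The liver X receptors bind oxysterols and switch on genes of cholesterol export and lipid synthesis, and both fell. NR1H2, the widely expressed LXR beta, had 1522, 1423 and 1200 counts in Ctrl and 970.4, 934 and 913 in NE. The log2 fold change was -0.55 ± 0.119 (SE), with a limma adjusted p of 0.00445. NR1H3, LXR alpha, had 219.9, 243 and 192 in Ctrl and 121, 155 and 175 in NE, a log2 fold change of -0.55 with an adjusted p of 0.033. The call for NR1H3 was kept only without Ctrl replicate 3 or NE replicate 3 among the analyses that left out 1 library, and it was lost without the filter on low values. After GC correction the log2 fold changes of NR1H2 and NR1H3 were 0.01 and -0.10, and neither passed the test. NR1H2 shares 22.1% of its exon bases with NAPSA on the opposite strand, and NR1H3 shares 4.17% with ACP2.

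NR1H4, the bile acid receptor FXR, had 42.9, 45.6 and 95.1 counts in Ctrl and 77.1, 97.8 and 60.3 in NE. Ctrl replicate 3 was among the NE values, and the log2 fold change of 0.42 did not pass the test with all libraries (limma adjusted p 0.317). Without that library it was 0.78 with an adjusted p of 0.017. THRA, the thyroid hormone receptor alpha gene, had 279.6, 213 and 162 in Ctrl and 158, 257 and 215 in NE, and its log2 fold change of -0.05 had a 95% interval from -0.59 to 0.49. The last exons of THRA overlap NR1D1 on the other strand over 6.45% of its exon bases. THRB had 9 summed reads in Ctrl and 26 in NE. The xenobiotic receptors NR1I2 and NR1I3 had 0 and 10 summed reads in Ctrl and 3 and 24 in NE, and none of these 3 genes was tested.

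COUP-TF receptors are orphan receptors that mostly repress transcription and compete with RXR partners for DNA sites, and their genes did not move together. NR2F2, COUP-TFII, had 2883, 2688 and 3482 counts in Ctrl and 2232, 2016 and 2008 in NE. It fell with a log2 fold change of -0.53 ± 0.120 (SE) and a limma adjusted p of 0.0059, and here Ctrl replicate 3 was the control farthest from the NE group. NR2F6 had 1991, 1875 and 1319 in Ctrl and 919, 989.8 and 942 in NE, and its log2 fold change was -0.84 ± 0.156 (SE) with an adjusted p of 0.00215. The NE libraries of NR2F6 had an SD of 36.1 counts, and the Ctrl libraries one of 359.

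Without Ctrl replicate 3 the log2 fold change of NR2F6 was -1.02 and that of NR2F2 was -0.42, both past the test. After GC correction they were -0.19 and -0.31, neither past it. NR2F6 had the highest exon GC content of the receptors tested, 70.9%. NR2F1, COUP-TFI, had 139, 119 and 138 counts in Ctrl and 143, 183 and 212 in NE, which is a narrow separation. Its log2 fold change of 0.42 did not pass the test (limma adjusted p 0.0863) but was 0.91 after GC correction, with an adjusted p of 0.00629, and 0.46 without Ctrl replicate 3, with an adjusted p of 0.048.

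The testicular receptors TR2 and TR4, orphan receptors that bind direct repeats and are known from silencing of embryonic globin genes, rose together. NR2C1, encoding TR2, had 401, 396 and 513 counts in Ctrl and 719, 622 and 727 in NE, a log2 fold change of 0.66 ± 0.142 (SE) with a limma adjusted p of 0.00426. NR2C2, encoding TR4, had 695, 754 and 894 in Ctrl and 1300, 1085 and 1038 in NE, a log2 fold change of 0.55 ± 0.138 (SE) with an adjusted p of 0.00933. Ctrl replicate 3 was the highest control for both. NR2C1 had the lowest exon GC content of the tested receptors, 37.9%, and GC correction brought its log2 fold change to 0.002, while that of NR2C2 became 0.28 with an adjusted p of 0.1. NR2C2 is also the receptor with the least certain reads, because 60.5% of its exon bases overlap MRPS25 on the opposite strand.

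Among the remaining orphan receptors NR6A1 rose. NR6A1, the germ cell nuclear factor known for silencing pluripotency genes during differentiation, carries the full CRE shown above. It had 136, 102 and 124.5 counts in Ctrl and 219, 152 and 187 in NE. The log2 fold change was 0.62 ± 0.195 (SE) with a limma adjusted p of 0.026, and after GC correction it was 0.77 with an adjusted p of 0.01485. The groups did not overlap, but the call was lost when Ctrl replicate 2, NE replicate 1 or NE replicate 3 was left out.

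NR5A2, the liver receptor homolog of endodermal tissues, had 27.2, 18.7 and 38.2 counts in Ctrl and 37.6, 43.6 and 61.2 in NE. The log2 fold change was 0.77 with a limma adjusted p of 0.09, and without Ctrl replicate 3 it was 1.01 with an adjusted p of 0.0169. HNF4G had 26.2, 31.1 and 38.2 in Ctrl and 47.4, 47.5 and 62.1 in NE, with a log2 fold change of 0.71 and an adjusted p of 0.0553. Without the same library it was 0.84 with an adjusted p of 0.0202, and after GC correction with all libraries it was 0.06. For both genes replicate 3 was the highest control.

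NR0B1, encoding DAX1, a receptor without a DNA-binding domain that represses other receptors, was the gene for which Ctrl replicate 3 mattered most. It had 97.4 and 75.7 normalized counts in Ctrl replicates 1 and 2 but 9.80 in replicate 3, and 9.88, 24.2 and 36.6 in NE. With all libraries the log2 fold change was -0.995 ± 0.796 (SE), with a 95% interval from -2.79 to 0.80. Without replicate 3 it was -1.997 with a limma adjusted p of 0.00133. In that setting 4802 and 4890 of 15061 genes tested were called higher and lower. The remaining members were not tested: NR2E1 had 14 summed reads in Ctrl and 16 in NE, NR2E3 had 9 and 14, and NR5A1 had 0 and 2. A count of 0 allows up to 3 reads in a library, and such limits cover counting error only.

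Per exon length, few of the receptors made up most of the receptor transcripts. In Ctrl the highest means were 36.1 ± 6.91 FPKM (SD, n = 3) for NR2F6, 25.9 ± 4.07 for NR2F2, 17.9 ± 2.76 for RXRB, 14.3 ± 1.47 for NR1H2 and 12.8 ± 2.66 for VDR. NR2F6 and NR2F2 overlapped in range, as did each neighbouring pair from RXRB down to RARG, while NR2F2 lay above RXRB in every library. NR3C1 was at rank 8 in Ctrl, with 6.24 ± 0.611 FPKM, below RARG and above NR2C1 without overlap. In NE it was at rank 3, with 14.9 ± 0.902 FPKM, after NR2F6 (21.9 ± 1.44) and NR2F2 (19.6 ± 0.533), and its range overlapped that of RXRB. VDR moved from rank 5 to rank 10, where it had 4.35 ± 0.507 FPKM.

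**Figure D2:**
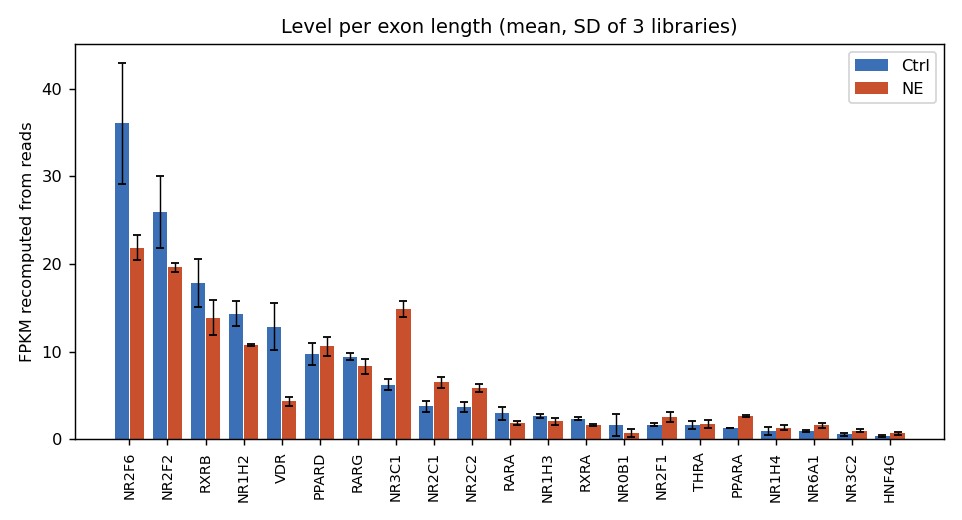
Level per exon length (FPKM, bars from 0, mean and SD of 3 libraries) in Ctrl (blue) and NE (orange) for receptors with at least 0.5 FPKM in a group, ordered by the Ctrl mean. NR3C1 is the only receptor among the 8 highest in Ctrl whose NE bar is far above its Ctrl bar (14.9 against 6.24 FPKM), and VDR has the largest relative drop among them (12.8 to 4.35 FPKM).

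Summed over the 32 listed receptors, the level was 168, 159.8 and 144.5 FPKM in the Ctrl libraries and 132, 137 and 138 in the NE libraries. NR3C1 made up 3.54, 3.65 and 4.80% of this sum in Ctrl and 12.0, 10.8 and 10.2% in NE. The share of VDR was 8.84, 8.66 and 6.80% in Ctrl and 3.32, 3.53 and 2.78% in NE. The summed level of RXRA and RXRB was 21.8, 22.0 and 16.9 FPKM in Ctrl and 13.3, 17.0 and 16.3 in NE, so that Ctrl replicate 3 lay within the NE range for this sum. These shares describe transcripts only.

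The direction of a receptor's change moved with the base composition of its exons. The 6 receptors that rose had an exon GC content of 37.9 to 50.3% (median 43.8%), and the 9 that fell had 51.3 to 70.9% (median 59.6%), with no overlap. Across the 23 tested receptors the Spearman correlation of exon GC with the log2 fold change was -0.735, and across 14955 tested genes with a GC value it was -0.644. Within the Ctrl group the relation was clearest for Ctrl replicate 3. Its difference from the mean of the other controls had a correlation of -0.755 across the receptors and -0.511 across all genes. The contrast of replicate 2 over replicate 1 gave weaker values, -0.348 across the receptors and -0.167 across all genes. Leaving out Ctrl replicate 3 did not weaken the relation with NE, which was then -0.760 across the receptors and -0.696 across 14854 genes. These correlations are across genes that share libraries and are given as a description. Ctrl replicate 3 was on the NE side of both other controls for 11 of the 15 receptors that passed the test and for 7 of the 8 that did not.

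**Figure D3:**
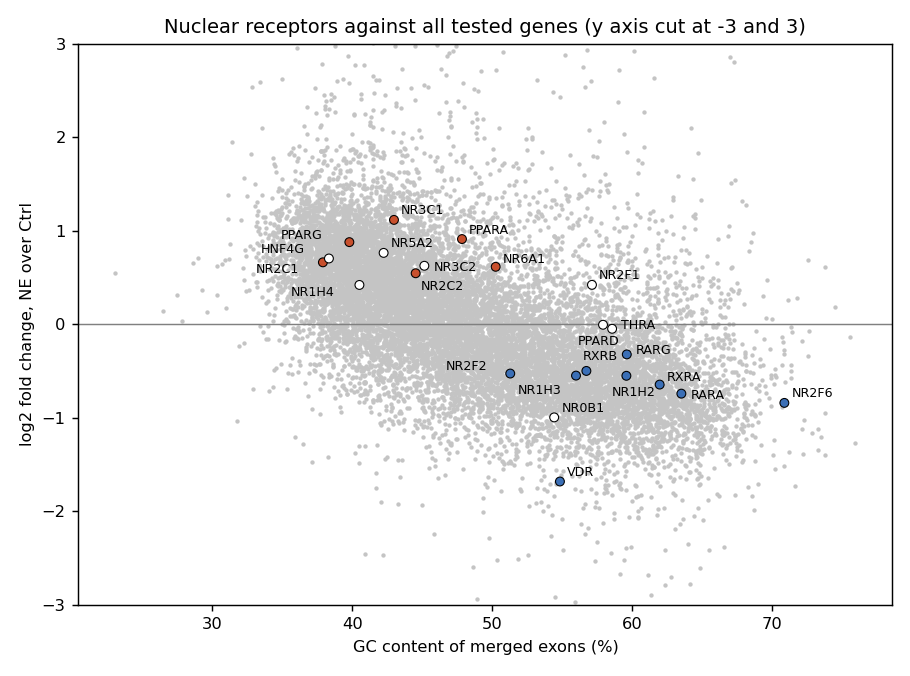
Exon GC content (%) against the log2 fold change of NE over Ctrl for all tested genes (grey) and the 23 tested receptors, filled orange where they rose, blue where they fell and white where they did not pass the test. The receptors lie along the same downward slope as the grey cloud, with VDR below it (54.9% GC, -1.68) and PPARA, NR6A1 and NR2F1 toward its upper side.

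When a smooth function of exon GC was removed from each library before the same test, 5 receptors were higher and 1 was lower. The 5 were NR3C1, PPARA, NR6A1, NR2F1 and PPARD, and the 1 was VDR. With this correction 1945 of 14955 genes were higher and 2834 were lower. When Ctrl replicate 3 was left out as well, an analysis added after seeing the data, NR3C2, NR2C2 and RARG joined those 5 and NR0B1 joined VDR. Of 14999 genes tested 2849 were then higher and 3559 lower. Thus NR3C1, PPARA and VDR kept their call in each analysis made here. NR2C1, NR2C2, NR2F2, NR2F6, NR1H2 and RXRA kept theirs in all 6 analyses that left out 1 library but not with GC correction of all libraries, although NR2F2 passed when exon length was corrected for as well. For these 6 a change with NE and the GC trend cannot be told apart.

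**Figure D4:**
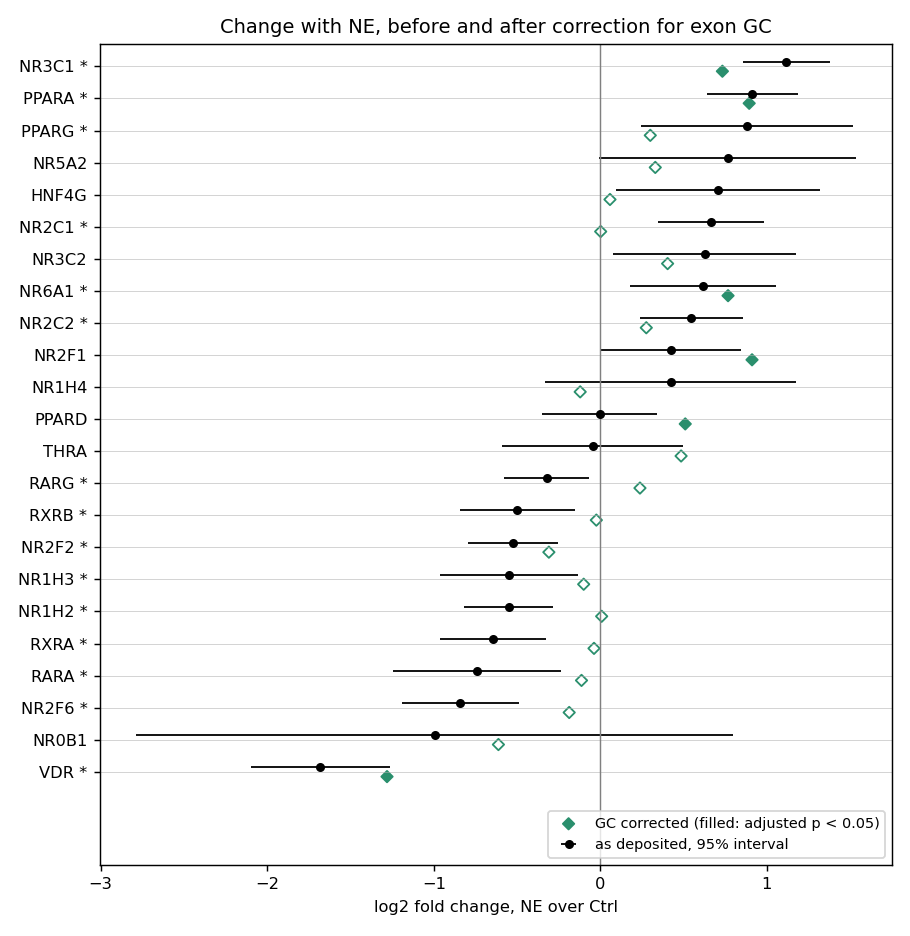
The log2 fold change of NE over Ctrl for the 23 tested receptors as deposited (black, with 95% intervals; stars mark an adjusted p under 0.05) and after GC correction (green diamonds, filled where the adjusted p is under 0.05). NR3C1, PPARA, NR6A1 and VDR are past the test both ways, whereas most receptors that fell, such as RXRA (-0.64 to -0.04) and NR1H2 (-0.55 to 0.01), move to near 0.

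The proteins that receptors recruit were measured as well. Of 24 coactivator genes, all tested, 17 rose and 3 fell with a median log2 fold change of 0.46. With GC correction 10 were higher and 3 lower. Beside this list and those below, 24.6% of all genes tested rose and 25.5% fell. With GC correction 1945 of 14955 genes were higher and 2834 were lower. NCOA2, a p160 coactivator of steroid receptors, rose from 1092 ± 195 to 2342 ± 347 normalized counts (SD, n = 3), and it was the only one past 2-fold. After GC correction its log2 fold change was 0.85, which is under 2-fold. Of 16 tested corepressor genes 7 rose and 3 fell, with a median of 0.27, and 6 were higher and 4 lower with GC correction. NRIP1, which restrains receptors bound to ligand, rose with a log2 fold change of 1.20, and LCOR, a similar ligand-dependent corepressor, rose with 1.09. After GC correction these were 0.60 and 0.52. HR, a corepressor of the thyroid hormone and vitamin D receptors, fell from 153 ± 38.6 to 34.9 ± 6.15 normalized counts. Of 12 chaperone and cochaperone genes of steroid receptors, 3 rose and 3 fell, with a median of -0.17 and none past 2-fold.

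Genes that make, break down or carry receptor ligands were mixed: of 16 tested, 5 rose and 4 fell, beside 24.6% and 25.5% of all genes. Their median log2 fold change was 0.20. With GC correction 4 were higher and 3 lower, with a median of -0.09. DIO2, which converts thyroxine to active thyroid hormone, was barely expressed in Ctrl, with a mean of 0.695 normalized counts against 20.6 ± 9.58 in NE. It reached the minimum mean of 10 only through the NE libraries, so its place among those that rose is partly set by the filter. STRA6, the membrane channel that takes up retinol, fell from 268 ± 19.6 to 76.0 ± 5.76.

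Known target genes of the receptors did not follow 1 direction. Of 17 tested glucocorticoid receptor targets 4 rose and 5 fell with a median log2 fold change of -0.22, beside 24.6% and 25.5% of all genes, and with GC correction 5 were higher and 5 lower. DUSP1, a phosphatase of MAP kinases, rose by 2.88 on the log2 scale and BIRC3, an inhibitor of apoptosis, by 2.12. ANGPTL4, an inhibitor of lipoprotein lipase, fell by 1.47 on the log2 scale, and MT2A, a metallothionein, fell by 1.08. After GC correction the log2 fold change of MT2A was -0.71 and that of DUSP1 was 3.30. FKBP5, a widely used reporter of glucocorticoid receptor activity that was chosen here after its values were seen, was at 723 ± 94.2 counts in Ctrl and 639 ± 39.1 in NE, a log2 fold change of -0.17 that did not pass the test (limma adjusted p 0.296). After GC correction it was -0.60 with an adjusted p of 0.00274. SGK1 and KLF9 were among the 4 of this list that rose, beside the 5 that fell. Their log2 fold changes were 1.138 and 0.565, and 0.750 and 0.424 after GC correction. FKBP5 alone therefore does not describe the list. Many of these genes answer to other pathways too, and receptor activity was not measured.

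Of 9 tested targets of the retinoic acid receptors, 2 rose and 5 fell, beside 24.6% and 25.5% of all genes. The median log2 fold change was -0.60, and with GC correction 2 were higher and 2 lower with a median of -0.21. NRIP1, named above, was among those that rose, while STRA6 fell by 1.80 on the log2 scale and TGM2, tissue transglutaminase, fell by 1.24. Of 12 tested LXR targets 2 rose and 7 fell, NR1H3 among them, beside the same shares of all genes. Their median was -0.62, and with GC correction 1 was higher and 1 lower. SMPDL3A, a sphingomyelinase-like phosphodiesterase, rose by 1.12 on the log2 scale. APOE, a lipid carrier, fell by 1.10 on the log2 scale.

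Of 10 tested PPAR targets 1 rose and 6 fell, beside 24.6% and 25.5% of all genes. Their median log2 fold change was -0.34, and with GC correction none was higher and 4 were lower. ANGPTL4 was in this list as well, and SLC25A20, the carnitine carrier of mitochondria, fell by 1.07 on the log2 scale. Of 6 tested targets of the vitamin D, thyroid hormone and estrogen receptors, 1 rose and 2 fell beside the same shares of all genes, with a median of -0.13. The 2 were HR and IGFBP4, a binding protein of insulin-like growth factors that fell by 1.23 on the log2 scale. CYP24A1, the vitamin D 24-hydroxylase and the standard target of VDR, also chosen after its values were seen, averaged 0.349 counts in Ctrl and 0.969 in NE and was not tested. With 1 summed read in Ctrl and 3 in NE, it was too low to show a change in either direction.

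Of 9 tested genes of the families left out by the rule (NR4A, NR1D, ROR and ESRR), 7 rose and 2 fell, 7 of them by at least 2-fold upward. Their median log2 fold change was 1.45. With GC correction 5 were higher and 1 lower, with a median of 0.87. Over all genes tested 24.6% rose, 25.5% fell and 7.47% rose by at least 2-fold. NR4A2 and NR4A3, immediate-early orphan receptors induced by cyclic AMP in many cells, had log2 fold changes of 6.51 and 5.92, against 1.12 for NR3C1, the largest rise among the members before GC correction. After it, NR2F1 (0.91), PPARA (0.89) and NR6A1 (0.77) were above NR3C1 (0.73).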

How the data were processed

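RNA was taken from 3 Ctrl and 3 NE samples of NCI-H1299. Per the submitters' notes and the study's methods, the authors aligned paired reads to hg38 with HISAT2 2.0.5 and counted them per gene with featureCounts 1.5.0-p3; whether counting used strand is not given in the sources used here. The methods name FPKM, but the deposited table holds a signal of another kind: gene counts divided by a library size factor, from which whole reads were recovered for 100% of values in each library (tolerance 0.01 read). FPKM was recomputed from these reads and merged GENCODE 44 exons, which also gave exon GC for 25813 of 26025 genes.

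The test was limma 3.58.1 in R 4.3.3 (lmFit, eBayes with trend) on log2(value + 1), over genes with a mean of at least 10, with Benjamini-Hochberg adjustment over all of them; fold changes are on that scale, which understates low genes. Called means an adjusted p under 0.05. The steps were tested on simulated data. edgeR 4.0.16 and DESeq2 1.42.0 on recovered reads, voom, quantile and TMM scaling, other pseudocounts and filters, a natural spline of exon GC (5 df, alone or with exon length) removed per library, a replicate block and leaving out each library were alternatives. An exact permutation test of 3 against 3 cannot go below 0.1 and was not used.

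The members and the lists of cofactors, chaperones, ligand enzymes and targets were chosen with earlier results of these data known, so list counts are descriptions, and some genes are in more than 1 list. All 36 members were accounted for. By rule at most 4 genes of each list were named. They were the 2 highest and 2 lowest log2 fold changes among those called with at least 2-fold change. FKBP5, SGK1, KLF9 and CYP24A1 were named outside this rule, and NR1H3 is a member. Some genes that this rule names are not reported here. Promoters came from RefSeq (GRCh38.p14), and bases inside annotated exons were cut from the printed stretches. Depth was 16852751 to 17979206 reads per library.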

Additional observations from a re-analysis of the deposited data

How the results depend on the processing

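With all 6 libraries as deposited, 6 receptors were higher and 9 lower, 1 of each by at least 2-fold. Pseudocounts of 0.5 and 5, quantile scaling, voom, edgeR and DESeq2 left each of the 23 receptors on its side of the threshold and in its direction, and TMM, no filter on low values and a minimum of 50 changed no count by over 1.5 times. Over the analyses without 1 library the counts ranged from 4 to 11 higher and from 5 to 10 lower, with 1 to 2 and 1 to 3 by at least 2-fold. The highest of these, 11, 10 and 3, were without Ctrl replicate 3, where 4802 and 4890 of all 15061 genes tested were higher and lower against 3693 and 3828 of 15013 with all libraries, and 5 were lower without Ctrl replicate 1, Ctrl replicate 2 or NE replicate 1. A 2nd receptor higher by at least 2-fold was PPARG without Ctrl replicate 2 and NR5A2 without Ctrl replicate 3.

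GC correction left 5 higher and 1 lower, and 0 higher by at least 2-fold, beside 1945, 2834 and 513 of 14955 genes. With GC and length correction 5 were higher and 2 lower, again with 0, beside 1817 and 2921 of 14955 genes. With GC correction and Ctrl replicate 3 left out, 8 were higher, 1 of them (NR2F1) by at least 2-fold. In that setting 2 were lower (VDR and NR0B1), both by at least 2-fold. Over all 14999 genes tested there, 2849 were higher and 3559 lower, 628 and 541 of them by at least 2-fold. Log2 fold changes that turned sign with GC correction were 0.510 for PPARD, 0.485 for THRA, 0.238 for RARG, 0.008 for NR1H2 and -0.121 for NR1H4. With GC and length correction they were 0.529 for PPARD, 0.387 for THRA, 0.213 for RARG, 0.029 for RXRB, -0.006 for NR1H4 and -0.015 for NR2C1. With GC correction and no Ctrl replicate 3 they were 0.503 for PPARD, 0.406 for THRA, 0.310 for RARG, 0.041 for RXRA, 0.035 for NR1H2 and -0.002 for NR2C1. PPARD was 0.017 with TMM and ranged from -0.123 to 0.092 over the analyses without 1 library, and THRA from -0.243 to 0.150. Beyond the correction's own construction, the cause was not tested.

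Deviations of same-numbered Ctrl and NE libraries from their group means had correlations of -0.163, 0.080 and -0.151. This cannot settle whether the numbers pair the samples, since each mean is of 3 libraries and Ctrl replicate 3 stood apart. With the replicate block 5 receptors were higher and 7 lower, PPARG, RARG and NR1H3 no longer being called. Over all 15013 genes tested, 3150 were then higher and 3358 lower. The replicate block with GC correction gave 5 higher, 1 lower and 0 higher by at least 2-fold, beside 1414, 2156 and 438 of 14955 genes. Log2 fold changes were then 0.510 for PPARD, 0.485 for THRA, 0.238 for RARG, 0.008 for NR1H2 and -0.121 for NR1H4.

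Depth limited the 9 receptors under the minimum, whose sums were at most 37 reads per group.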
